A study of Drosophila melanogaster with 2 samples.

Results

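The genes described here are 39 protein-coding genes of DNA replication and the cell cycle in Drosophila melanogaster, out of 13968 protein-coding genes on the assembled chromosome arms. They were taken by symbol from a list of 40 names. The rule did not use any value of the data, but the genes were chosen with earlier results of these data known. The skipped name, lat, is an older symbol of Orc3. The list was divided by role into 14 licensing genes, 4 fork genes, 12 regulators and 9 cyclins and cyclin-dependent kinases (Cdks). The readout was chromatin immunoprecipitation followed by sequencing (ChIP-seq) of ranshi, a ZAD-type zinc finger protein, in whole embryos aged 0 to 24 h. Embryos came from a transgenic strain, ranshi-GFP, with an insertion that yields a ranshi-eGFP fusion, and an anti-GFP antibody pulled the fusion down. The design had 1 group of 2 biological replicates, both with the insertion, so no comparison between conditions was possible. Embryos over the first day hold many cell types and stages, and a peak does not tell how many of their cells carry the protein there.

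Replication begins with licensing. The origin recognition complex (the Orc genes) and Cdc6 mark an origin, and dup, the fly Cdt1, helps to load the Mcm helicase, whose fly Mcm4 subunit is dpa, while geminin blocks dup. At the fork PCNA is the sliding clamp, Mcm10 joins the helicase, and RnrL with RnrS form ribonucleotide reductase, which makes deoxynucleotides. Entry into S phase is set by E2f1, E2f2 and their partner Dp, held back by Rbf, the fly retinoblastoma protein. Dref binds the DNA replication-related element, a promoter word found near many replication genes. CycE with Cdk2 drives S phase, CycD pairs with Cdk4, and CycA, CycB and CycB3 act with Cdk1 in mitosis. The Cdc25 phosphatases stg and twe activate Cdk1, dap inhibits CycE with Cdk2, fzr activates the anaphase-promoting complex, and polo, aurA and aurB are mitotic kinases.

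The sequences at 6 of the summits show the DNA at called peaks of these genes. Each is the summit base with 50 bp to each side, read from the RefSeq assembly of build dm6 on the strand of the gene, 5′ to 3′. Capitals mark the words searched for, on both strands. The words present are the TATA box TATAAA, the word CACTG, the homeodomain core TAATTA, the DNA replication-related element TATCGATA with its core ATCGAT, and the Motif 1 core GTCACAC. The first pair comes from peaks of the conservative set, CycE at chr2L:15746998-15747098 (minus strand) and aurB at chr2L:10858274-10858374 (minus strand). Mcm2 at chr3R:8264842-8264942 (plus strand), Cdk1 at chr2L:10386482-10386582 (minus strand) and Cdk2 at chr3R:20735508-20735608 (plus strand) are from the larger set, and CycB3 at chr3R:24870844-24870944 (minus strand) is from replicate 2 alone. Those 4 were added after their values were seen, to show the range of sequence.
CycE: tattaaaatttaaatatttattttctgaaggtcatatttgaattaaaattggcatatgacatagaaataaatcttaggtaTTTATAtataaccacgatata
aurB: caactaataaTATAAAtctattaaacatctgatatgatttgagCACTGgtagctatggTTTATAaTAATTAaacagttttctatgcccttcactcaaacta
Mcm2: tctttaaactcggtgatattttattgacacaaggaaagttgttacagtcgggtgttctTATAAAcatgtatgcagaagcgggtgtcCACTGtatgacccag
Cdk1: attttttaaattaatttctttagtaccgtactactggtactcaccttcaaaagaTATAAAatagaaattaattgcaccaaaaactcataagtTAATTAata
Cdk2: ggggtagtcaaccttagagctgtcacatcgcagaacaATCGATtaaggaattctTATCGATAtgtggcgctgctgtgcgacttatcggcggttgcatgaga
CycB3: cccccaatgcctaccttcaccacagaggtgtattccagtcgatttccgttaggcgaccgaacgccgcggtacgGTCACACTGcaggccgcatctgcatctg
These windows differ widely in base composition. G and C made up 18.8% of the bases at CycE, 22.8% at Cdk1, 27.7% at aurB, 40.6% at Mcm2, 48.5% at Cdk2 and 59.4% at CycB3. The full DNA replication-related element of Cdk2 began 4 bp downstream of the summit. In the CycB3 window the Motif 1 core began 23 bp and the CACTG word 27 bp downstream of the summit, and their letters overlap.

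The deposited data were 8 lists of peaks. The conservative set held 2984 peaks, a larger thresholded set of the series held 5373, and the sets of replicates 1 and 2 held 3636 and 3149. Each set had a ranked list of candidates behind it, with between 83284 and 132943 peaks. The score of a peak is a whole number of at most 1000 that follows its irreproducible discovery rate (IDR), the estimated share of peaks at that rank or better that would not recur. Every set began at a score of 830, which equals an IDR of 0.01. The signal is the authors' own value from peak calling and is not scaled between lists, so it is compared within a list here. Read depth is unknown here. At ranshi itself (3R:8728367-8729693) no list had a peak or candidate summit within 500 bp of a start.

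A gene was counted as having a peak where a summit lay within 500 bp of any of its transcript starts. In the conservative set 7 of the 39 genes did, which is 17.9%, against 12.7% of all protein-coding genes. These were dpa, geminin, RnrS, Dp, fzr, aurB and CycE. The larger set added 7 more, Mcm2, dup, Dref, aurA, CycA, Cdk1 and Cdk2, for 14 genes or 35.9%, against 20.5% of all protein-coding genes. The set of replicate 1 held 9 of the genes (23.1%, against 14.5%) and the set of replicate 2 held 5 (12.8%, against 13.9%). The share of the 39 genes was thus above that of all genes in 3 of the 4 sets and slightly below it in the set of replicate 2. That last gap is within the reach of 1 gene. A CycG candidate with a score of 1000 was left out of the replicate 2 set, and with it 6 of the 39 genes reached a score of 830 there. With a window of 200 bp the conservative share was also below, at 3 genes or 7.69%, against 9.07%. Only dpa and Dp had a thresholded peak in both replicates, 5.13% of the 39 genes against 8.77% of all protein-coding genes. Where a candidate of any score at the gene in the other replicate was enough, 10 of the 39 genes (25.6%) counted, against 17.0% of all protein-coding genes. These were the 9 genes of the replicate 1 set and CycB3. Over the 4 sets, 15 of the genes (38.5%, against 23.1%) had a peak in at least 1, and 24 had none. No test was made of these shares. Of the 39 genes, 61.5% had 1 annotated start, against 73.5% of all protein-coding genes, so more of them had several starts at which a summit could count.

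**Figure D1:**
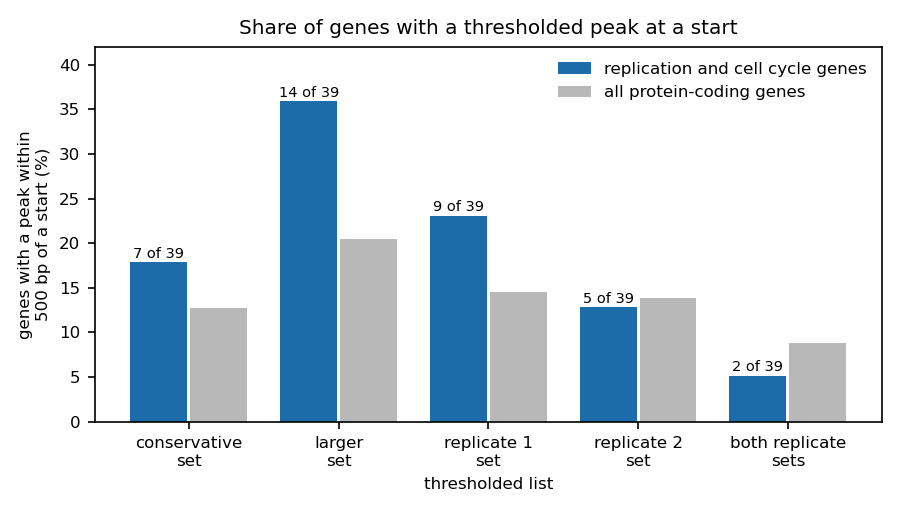
Percent of genes with a summit within 500 bp of a transcript start, for the 39 replication and cell cycle genes (blue) and all 13968 protein-coding genes (grey), in each thresholded set and in the sets of both replicates. The blue bar is the taller one in the conservative, larger and replicate 1 sets (17.9%, 35.9% and 23.1%) and the shorter one in the replicate 2 set (12.8%) and in both (5.13%).

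**Figure D2:**
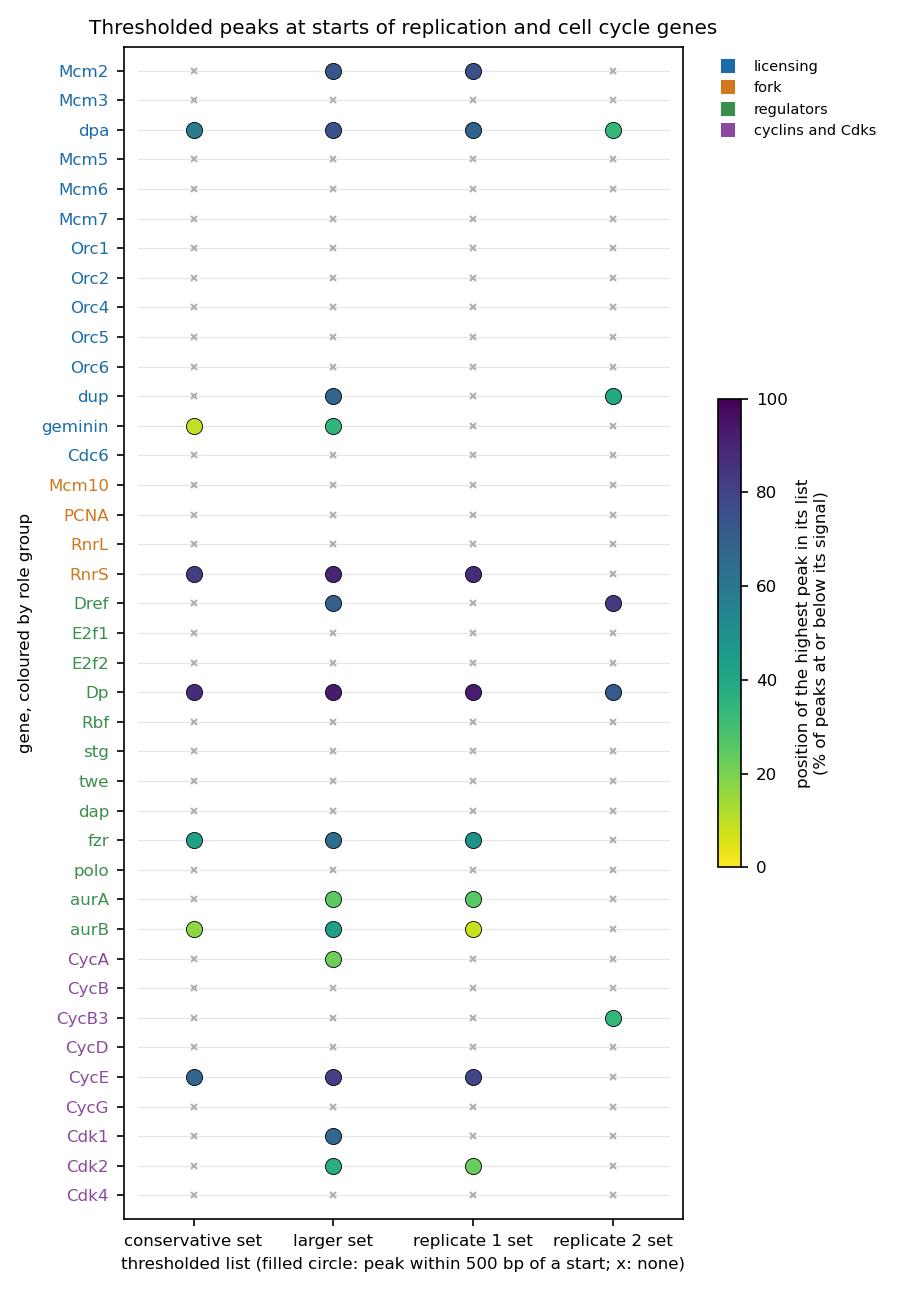
Each row is 1 of the 39 genes, coloured by role, and each column a thresholded set. A filled circle marks a peak within 500 bp of a start, its shade gives the percent of peaks of that set at or below its signal, and an x marks no peak. The Dp and dpa rows alone are filled in all 4 columns.

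Among the 14 licensing genes, dpa and geminin had a conservative peak, and Mcm2 and dup joined them in the larger set. The Mcm4 subunit, dpa, was in all 4 sets. Its conservative peak at 2R:7499833-7500148 had its summit at -114 bp from the closest start (negative is upstream), in the 5' UTR of a longer dpa transcript, with a signal of 159 and rank 1238 of 2984. The signal was 115 at rank 1127 in replicate 1 and 46.0 at rank 2099, with a score of 992, in replicate 2. The peak thus stood in the upper part of replicate 1's list and in the lower part of replicate 2's. The start of didum, on the opposite strand, was 156 bp from the same summit.

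At geminin, the inhibitor of dup, the conservative peak (2R:6656242-6656557) reached its summit at 1 bp, next to the base of an internal start. It was weak, with a signal of 76.1, rank 2695 of 2984 and a score of 906, and neither replicate's own set held it. Its candidates had a signal of 44.3 with a score of 47 in replicate 1 and of 31.4 with a score of 717 in replicate 2. The larger set gave it the same signal with a score of 951 and rank 3521 of 5373. The word CACTG began at the summit base.

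The peak at dup, which loads the helicase, was in the larger set and in replicate 2. At 2R:15380505-15380820 its summit was at -49 bp from an internal start, in the 5' UTR of dup. The signal was 130 at rank 1721 in the larger set and 48.8 at rank 1886 in replicate 2. Replicate 1 had no candidate there. SRPK, on the opposite strand, has a start 61 bp from that summit. A further peak of the larger set, at 2R:15381196-15381511, had a signal of 76.1. It was closer to a start of SRPK, at 95 bp, than to the outermost start of dup, at -366 bp.

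Mcm2, a subunit of the same helicase, showed the reverse. Its peak at 3R:8264852-8264955 had its summit at -78 bp, with a signal of 148 at rank 1446 of the larger set and 136 at rank 868 of replicate 1. In replicate 2 the overlapping candidate had a signal of 12.4 and a score of 136. The conservative ranked list held the Mcm2 peak at the same signal with a score of 54, far under the limit. The intergenic stretch is shared with RPA1, a subunit of the single-strand binding protein of the fork, which starts 441 bp away on the opposite strand.

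The other 10 licensing genes had no thresholded peak. Mcm6, with a candidate of 39.1 in the conservative ranked list and a score of 42, was among the 3 highest candidates of the genes in no set. Orc1 had the highest scores of the origin recognition genes, 768 in the conservative ranked list at a signal of 37.8 and 770 in replicate 2 at 30.2. Mcm7 had no candidate within 500 bp of its start in any list, and Orc2 had one in the larger ranked list alone, at a signal of 13.7. Orc3, reached through the skipped older symbol, had no thresholded peak either, and its best conservative candidate had a signal of 32.6 with a score of 51.

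Of the 4 fork genes, RnrS, the small subunit of ribonucleotide reductase, had thresholded peaks. The main conservative peak at 2R:11985509-11985643 was 135 bp wide, with its summit at -171 bp, a signal of 271 and rank 528 of 2984. Replicate 1 had it at 203, rank 452 of 3636, and in replicate 2 the candidate had a signal of 55.4 and a score of 829, 1 unit under the limit. The count of genes in both replicates therefore leaves out RnrS by that unit. A second conservative peak at 2R:11985609-11985924, overlapping the first, had a signal of 13.6, rank 2927, and was closer to the start of CG34231 (241 bp) than to that of RnrS (-374 bp). The larger set lacked this second peak, which scored 50 in the larger ranked list. The candidates it overlapped in the replicates were those of the main peak.

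RnrL, the large subunit, had a candidate in replicate 2 alone, with a signal of 15.3 and a score of 186. Mcm10 had candidates of 36.4, 27.7 and 9.54 in the conservative ranked list and in replicates 1 and 2, with scores of 64, 294 and 33. PCNA had 31.8, 19.0 and 15.4 in the same lists, with scores of 160, 75 and 124. The 2 subunits of the same enzyme thus differed in these lists, with a peak at RnrS and none past the limit at RnrL.

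**Figure D3:**
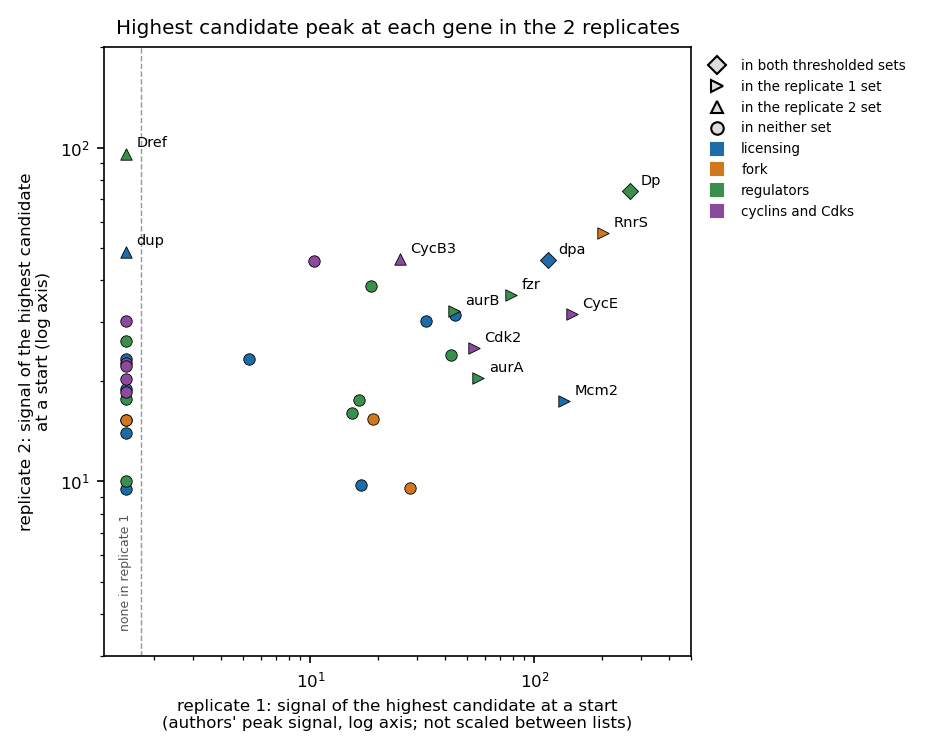
Signal of the highest candidate within 500 bp of a start in replicate 1 (horizontal, log axis) and replicate 2 (vertical, log axis), for the 37 genes with a candidate in either, coloured by role and shaped by the set that held it. Genes left of the dashed line had none in replicate 1. Dp, at 267 and 74.2, is the farthest to the right. The values of a gene can come from different summits, as for Dp (-213 bp in replicate 1, 404 bp in replicate 2) and Mcm2 (-74 bp and 368 bp).

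Among the 12 regulators, Dp had the highest signal of the 39 genes. Its conservative peak at 2R:13223288-13223484, in an intron, had a signal of 336 at rank 374 of 2984, with its summit at -213 bp from an internal start. A second intron peak at 2R:13223865-13224180 had its summit at 432 bp, a signal of 207 and rank 836, and lay 439 bp from the start of lncRNA:CR43918 on the opposite strand. In replicate 1 the pair had signals of 267 and 123, and in replicate 2 of 72.9 and 74.2. The first peak was thus the stronger in replicate 1, and the pair was nearly level in replicate 2. At the outermost Dp start, the larger set added a peak at 2R:13222229-13222544 with a signal of 80.6 and its summit at -46 bp, which lies 49 bp from the start of Fsn. Neither replicate's set held that peak, whose candidates scored 319 and 795.

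The peak of fzr, the activator of the anaphase-promoting complex, lay at the edge of the window. At X:4679873-4680188 its summit was at -494 bp, in the 3' UTR of the neighbouring Pp2C1, with a signal of 123 and rank 1704 of 2984. Replicate 1 had it at -450 bp with a signal of 78.8, rank 1834, and in replicate 2 the candidate had a signal of 36.2 and a score of 796. In the larger set a further peak at 165 bp, inside the 5' UTR of fzr, had a signal of 57.6 and a score of 876.

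At aurB, a mitotic kinase, the conservative peak at 2L:10858166-10858481 had a signal of 85.5, rank 2463 of 2984 and a score of 920, with its summit at -230 bp. Stam, on the opposite strand, starts 212 bp from it and so is the closer gene. Replicate 1 had the peak at 43.9, rank 3336 of 3636, and there aurB was the closer gene (-208 bp, against 234 bp for Stam). The replicate 2 candidate had a signal of 32.4 and a score of 571. The related kinase aurA had a peak in the larger set at 3R:11962929-11963244, at -37 bp, with a signal of 67.6 and rank 4030 of 5373. It was in replicate 1 at 56.2, rank 2694, and replicate 2 had a candidate of 17.2 with a score of 157. In the larger set aurB ranked 3014 of 5373, nearer the middle than aurA.

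Dref, the factor that binds the DNA replication-related element, had a peak in the larger set at 2L:9967165-9967480 with a signal of 136 and rank 1614 of 5373. In replicate 2 it had a signal of 95.9 at rank 522 of 3149, the highest there among the 39 genes, and replicate 1 had no candidate. The summit was at -94 bp from Dref but 7 bp from the start of RpL13, a ribosomal protein gene on the opposite strand, and lay in its 5' UTR. None of the words searched for was within 50 bp of that summit.

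E2f1 showed peaks away from its starts. A conservative peak at 3R:21657144-21657459, in an intron, had a signal of 70.8 at rank 2779 of 2984 and lay 3130 bp from the closest start. The larger set and replicate 2 had a further intron peak at 3R:21627793-21628108 in the larger set, 4742 bp from the closest start, with signals of 128 and 52.4. Neither counts under the 500 bp rule. A candidate of E2f1 at -369 bp, with a signal of 59.8, scored 933 in the larger ranked list but was left out of the larger set, one of 163 such peaks. E2f2, the repressive E2F of the fly, had the highest candidate of the genes in no set, 75.1 in the conservative ranked list with a score of 721. Rbf had 38.2 with a score of 185 there.

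The other regulators had candidates alone. Those of dap, the inhibitor of CycE with Cdk2, scored 53 in the conservative ranked list and 804 in replicate 2, where the signal was 38.6. At stg, the Cdc25 phosphatase of embryonic mitoses, the signal was 30.4 in the conservative ranked list and 16.5 and 17.5 in replicates 1 and 2. The germline phosphatase twe had a candidate in replicate 2 alone, with a score of 33, and polo had one of 26.4 there and none in replicate 1.

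In the last group, CycE had the single conservative peak among 9 cyclins and Cdks. At 2L:15746969-15747094 in an intron of CycE, 126 bp wide, it had its summit at -438 bp from an internal start, a signal of 191 and rank 957 of 2984. Replicate 1 had it at 147, rank 763 of 3636. In replicate 2 the candidate there had a signal of 31.7 and a score of 64. The sequence printed for it is the poorest in G and C of the windows at conservative and larger peaks of the 39 genes.

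Cdk2, the partner of CycE, had a peak in the larger set at 3R:20735400-20735715, at -65 bp, with a signal of 78.8 and rank 3370 of 5373. It was in replicate 1 at 53.8, rank 2810, and the replicate 2 candidate had 25.1 and a score of 278. In the conservative ranked list its score was 803, short of the limit. The miRNA gene mir-995 starts 365 bp from the larger set's summit, on the same strand. The printed sequence shows that this was the one summit of the 19 larger-set peaks with the full DNA replication-related element.

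Cdk1, the mitotic kinase, had a peak in the larger set at 2L:10386374-10386689 with a signal of 129 and rank 1748 of 5373. Its summit was at -270 bp, closer to mRpS7 (130 bp), a mitochondrial ribosomal protein gene on the opposite strand. Replicate 1 had no candidate, and replicate 2 had one of 30.2 with a score of 617. CycA had a pair of peaks in the larger set in its own 5' UTR, at 3L:11832947-11833262 (summit at 473 bp, signal 65.4) and 3L:11833166-11833481 (254 bp, 11.9). Replicate 1 had no candidate at CycA, and the overlapping candidate of replicate 2 had 27.0 and a score of 404. So the larger set held peaks at Cdk1 and CycA that neither replicate's set held.

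CycB3 was in the set of replicate 2 alone, at 3R:24870749-24871038, with its summit at -78 bp, a signal of 46.4 and rank 2069 of 3149. CycG, an atypical cyclin, had a replicate 2 candidate of 45.7 at -95 bp with a score of 1000 that was left out of the set, one of 108 such peaks. At Cdk4 a peak of the larger set had its summit at -606 bp, just outside the window, with a signal of 73.6, and replicate 2 had it at -629 bp with 41.1. CycD and CycB had no thresholded peak. Their replicate 2 candidates had signals of 22.2 and 22.7.

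**Figure D4:**
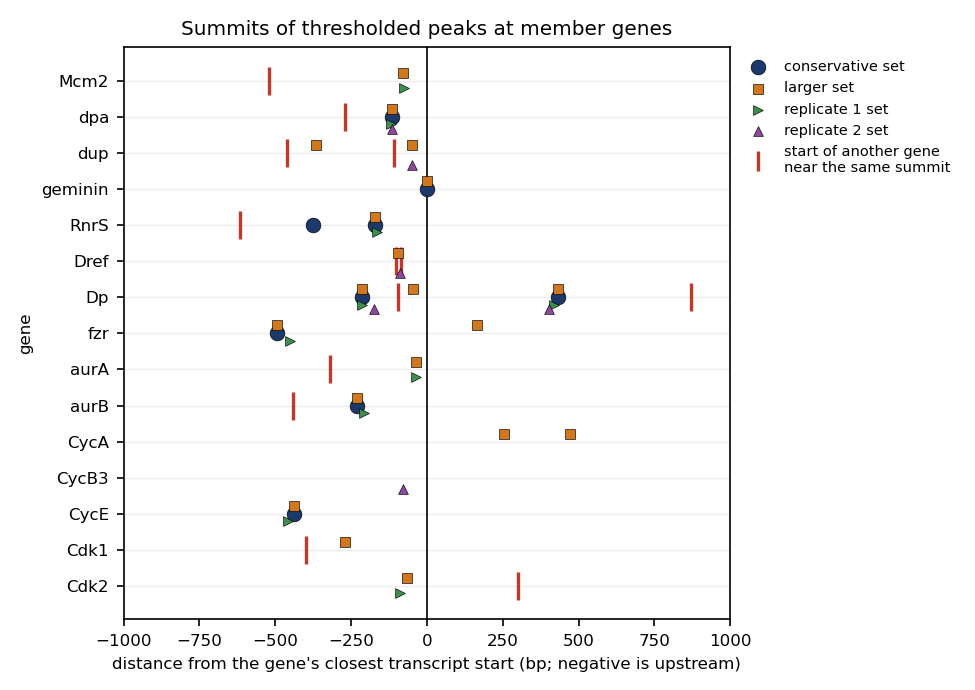
Distance in bp from each summit to the closest start of the gene, negative upstream, for the 15 genes with a thresholded peak. Symbols give the set, and red ticks mark starts of other genes within 500 bp of the same summit. The geminin summit sits at 1 bp, and those of fzr (-494 bp) and CycE (-438 bp) sit near the left edge of the window.

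The 9 conservative peaks at the 39 genes had a median signal of 159, from 13.6 to 336, and the 1348 peaks of that set at starts of protein-coding genes also had a median of 159. In the larger set the medians were 123 over 19 peaks and 104 over 2313. They were 119 over 10 and 95.3 over 1493 in replicate 1, and 60.9 over 6 and 53.2 over 1641 in replicate 2. The highest signal at any protein-coding start of the conservative set was 2765, and the peaks at these genes ranked from 374 to 2927 of 2984. Summits lay upstream in 77.8% of the 9 conservative peaks and in 84.1% of the 1348, at median distances of -213 bp and -108 bp. For the 9 the distance was to a start of the listed gene, even where another gene was closer. For the 1348 it was to the closest protein-coding start, so these measures are not alike.

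Many of these summits had starts of both strands close by, in whatever arrangement. Starts on both strands lay within 500 bp of the summit in 5 of the 9 conservative peaks (55.6%), against 39.5% of all conservative peaks at protein-coding starts, and in 11 of 19 of the larger set (57.9%), against 36.0%. The 5 include both overlapping peaks of RnrS. Of the 39 genes, 16 had a start on the opposite strand within 500 bp of one of their own, against 30.6% of all protein-coding genes. Where a summit counted for the closest gene alone, the conservative count was 6 genes (15.4%, against 9.25%), without aurB. In the larger set it was 11 (28.2%, against 15.2%), without Dref, aurB and Cdk1. A shared peak does not tell which of the genes it belongs to.

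The ranked lists, which include peaks far under the limit, showed a different pattern in the replicates. A candidate within 500 bp of a start was present at 21 of the 39 genes in replicate 1 (53.8%, against 62.1% of all protein-coding genes) and at 37 in replicate 2 (94.9%, against 71.6%). All 21 genes with a candidate in replicate 1 had one in replicate 2. A further 16 of the 39 genes, against 25.0% of all protein-coding genes, had one in replicate 2 alone, none had one in replicate 1 alone (0%, against 15.5%), and Mcm7 and Orc2 had none in either. The conservative ranked list had 22 (56.4%, against 59.0%) and the larger ranked list 31 (79.5%, against 79.0%). With genes without a candidate set to 0, the median best signal over the 39 genes was 10.4 in replicate 1, against 12.3 over all protein-coding genes, and 22.7 in replicate 2, against 15.1. So in replicate 1 a lower share of these genes than of all genes had a candidate but a higher share had a thresholded peak. In replicate 2 a higher share had a candidate, while the thresholded shares were close (12.8%, against 13.9%). The 24 genes in no set had candidates of 5.30 to 42.4 in replicate 1 (10 genes) and 9.52 to 45.7 in replicate 2 (22 genes).

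By role, the median best candidate in the conservative ranked list was 0 over the 14 licensing genes, of which 8 had none, 34.1 over the 4 fork genes, 34.4 over the 12 regulators and 24.6 over the 9 cyclins and Cdks, against 18.7 over all protein-coding genes. In replicate 1 the medians were 0, 23.4, 17.6 and 0, against 12.3, and in replicate 2 they were 18.2, 15.3, 25.2 and 25.1, against 15.1, so the lowest role differed between lists. In the larger set the share of genes with a peak was 28.6%, 25.0%, 41.7% and 44.4% in that order of roles, against 20.5% of all protein-coding genes. In the replicate 1 set it was 14.3%, 25.0%, 33.3% and 22.2%, against 14.5%. In the replicate 2 set it was 14.3%, 0%, 16.7% and 11.1%, against 13.9%. Groups of 4 to 14 genes move by many percentage points with 1 gene, and the order of the roles was not the same in these sets.

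Promoters of the 39 genes were also read for words of known promoter factors, in the 300 bp from 250 bp before to 50 bp after the first start, on both strands. The E2F site was counted as any of TTTCCCGC, TTTGGCGC, TTTCGCGC and TTTGCCGC. It was in 11 promoters (28.2%), those of Mcm2, Mcm3, Mcm5, Mcm6, Orc1, Orc4, Orc5, Orc6, RnrL, RnrS and stg, against 6.41% of all protein-coding promoters. Of the 24 genes in no set, 9 had it (37.5%), and of the 15 with a thresholded peak, 2 had it (13.3%), Mcm2 and RnrS. Within 50 bp of summits of the larger set, it was at dpa and dup, beginning 27 bp downstream of each summit, 2 of 19 peaks (10.5%), against 2.08% of all 2313. Of the 7 genes with a conservative peak, 1 had the site in its promoter (14.3%), against 28.2% of all 39. For that comparison the order over all protein-coding genes was the other way. The site was in 7.82% of the promoters of genes with a conservative peak and in 6.41% of all promoters. The share of the 7 rests on 1 gene. The promoters of dpa and dup, read at the first start, lack the site, while their summits at internal starts hold it.

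The DNA replication-related element TATCGATA was in 5 promoters (12.8%), those of Orc2, Orc5, PCNA, CycA and Cdk2, against 9.36% of all. Its core ATCGAT, which the full element contains, was in 28.2%, against 23.3%. Of the words without a tie to replication, CACTG was in 53.8% of the promoters, against 46.1%, TATAAA in 51.3%, against 45.8%, TAATTA in 25.6%, against 20.4%, and GTCACAC in 17.9%, against 9.47%. GAGAG, the GAGA factor word, was in 20.5%, against 29.7%, and the E-box CACGTG was in none, against 4.20%. At the summits themselves CACTG was in 22.2% of the 9 conservative peaks, against 20.0% of the 1348, and in 26.3% of the 19 peaks of the larger set, against 21.8%. G and C made up 33.8 ± 9.83% of the bases within 50 bp of the 9 conservative summits and 34.0 ± 10.5% at the 1348 (mean and SD over peaks). A word match describes the letters in a window and does not show that a factor binds there.

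**Figure D5:**
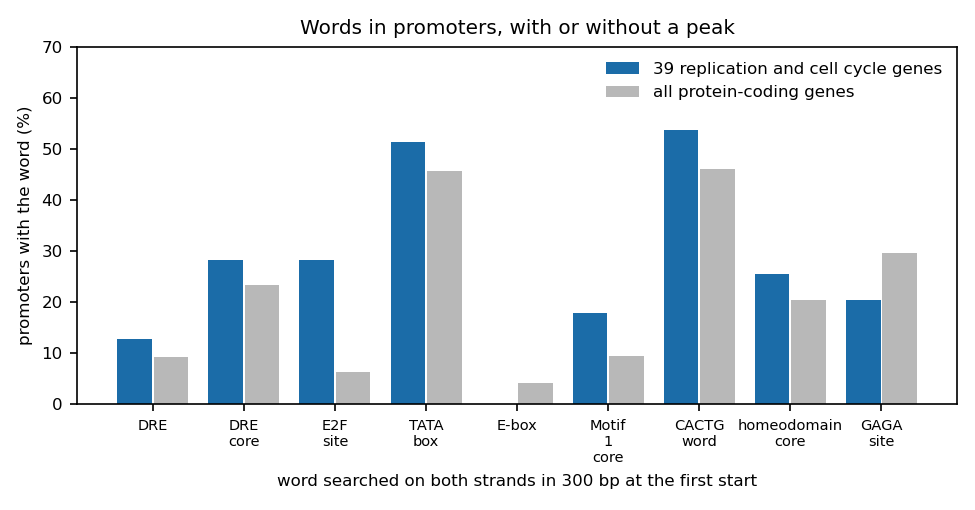
Percent of 300 bp promoters with each word on either strand, for the 39 genes (blue) and all protein-coding genes (grey), whether or not a peak is present. The widest gap is at the E2F site, 28.2% against 6.41%.

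A wider list of the same processes, 102 names less Tk and none of them among the 39 genes, gave the surroundings of these counts. In the conservative set 20 had a peak (19.8%, against 12.7% of all protein-coding genes), in the larger set 30 (29.7%, against 20.5%), in replicate 1 also 20 (19.8%, against 14.5%) and in replicate 2 18 (17.8%, against 13.9%). Both replicates held 14 of them (13.9%, against 8.77%), where they held 2 of the 39. By group the conservative counts were 6 of 37 polymerase and other replisome genes, 6 of 24 checkpoint and kinase regulators, 4 of 19 genes of ubiquitin ligases and cohesin release, 3 of 10 E2F and Myb complex genes, and 1 of 11 other cyclins and Cdks. The 8 with the highest conservative signal were mei-41 (514), CG8142 (418), Cdc16 (385), PolD2 (379), tefu (259), Top1 (248), mts (235) and CG8188 (233). The first 4 exceeded the 336 of Dp. Here mei-41 and tefu are the fly ATR and ATM checkpoint kinases, Cdc16 is a subunit of the anaphase-promoting complex, PolD2 is a subunit of DNA polymerase delta, Top1 is topoisomerase I and mts is the catalytic subunit of protein phosphatase 2A. Among these 8, the summit was closer to another gene at mei-41 (TH1, -102 bp), tefu (Hsc70-4, -164 bp) and mts (Rack1, -11 bp). The same held for the conservative peaks of Bub3, plu, gwl, Cul1, ago, Rbf2 and Max. The shares of the wider list include such peaks, which do not tell which gene they belong to. Of the wider list, 56.4% had an opposite-strand start within 500 bp of one of their own, against 30.6% of all protein-coding genes.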

How the data were processed

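Peak lists of ranshi-eGFP ChIP-seq in whole embryos of 1 group, 2 biological replicates, were used as deposited, on assembly dm6 per the labels. The labels give sonication, with a size range of 200 to 800. The sources used here name neither aligner nor peak caller. The deposited score is a whole number. It was compared with 125 times log2 of 1/IDR, set to the highest score, 1000, where that product was higher. The IDR came from the deposited −log10 IDR of the ranked lists. The score and this value were equal, within 1 unit, for 89387 of the 89391 peaks of the conservative ranked list. The deposited signal is the authors' value for each peak, with no scaling between lists, and summits are the deposited start plus the deposited offset (column 10). The thresholded sets lack 69, 163, 160 and 108 ranked peaks with a score past the limit (conservative, larger, replicate 1, replicate 2). In each ranked list, 8 columns with values of single inputs carry no sample name and stayed unused. Control libraries were not analysed here. No read depth was given, so no interval for counting error could be set.

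Gene models were those of Ensembl release 115, and the sequence was that of the RefSeq genome, also dm6. Counts and distances were computed with Python 3.11.15 and drawn with matplotlib 3.10.9, and the assignment of summits to starts was tested on simulated data. Members and word and pathway lists were chosen with earlier results of these data known. Each gene with a thresholded peak is named, as are the 3 highest conservative candidates of the others, the 8 highest wider-list genes, neighbours that share a summit, and ranshi. Other genes, values of single candidates and 4 of the printed sequences were chosen after their values were seen. Of 102 names in the wider list, 3 were matched through older symbols, and 1, Tk, was left out because in Drosophila it names a neuropeptide gene. With 2 samples of 1 group no test was made. Sequences on one arm are not reported here, nor are windows in a UTR. Alternatives changed the window, the starts, the assignment, the overlap rule, the score and the list.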

Additional observations from a re-analysis of the deposited data

How the results depend on the processing

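A count or signal was taken as unmoved where it stayed within 1.5 times its value, since pooled peaks have no replicate SD. With a window of 200 bp in place of 500 bp, the 7 genes with a conservative peak became 3 (RnrS, dpa and geminin) and the 2 genes in both replicates became 1 (dpa). In the larger set the 7 became 14, and the 1778 protein-coding genes became 2864. With the first start alone, the median signal of 159 at the 39 genes became 104, since the CycE and Dp peaks lie at internal starts. Where a candidate in the other replicate was enough, 10 of the 39 genes (25.6%) counted as in both, against 17.0% of all protein-coding genes. The order was then the reverse of 5.13% against 8.77%. That candidate could have any score, and 94.9% of the 39 genes had one in replicate 2, so all 9 genes of the replicate 1 set counted. It could also lie at another summit, as at CycB3, with 423 bp in replicate 1 (score 55) and -78 bp in replicate 2. The setting therefore says little on agreement of replicates. Leaving out a replicate gave 5 to 9 genes, 1935 to 2025 protein-coding genes and a median signal of 60.9 to 119, though signals of different lists are not on 1 scale. Without replicate 1 the genes were dpa, dup, Dref, Dp and CycB3. Without replicate 2 they were Mcm2, dpa, RnrS, Dp, fzr, aurA, aurB, CycE and Cdk2. The other 23 values for the 4 summary results, and 44 of 48 values for single genes, stayed within 1.5 times. Those 48 are the settings that left the gene a peak, and in 15 others of 63 the gene had none, as with CycE, Dp, fzr and aurB at 200 bp. Unless a replicate was left out, the 48 values were those of the same pooled peak, so their staying is no measure of stability. The 4 that moved came with a replicate left out. They were Dp (74.2) and dpa (46.0) without replicate 1, and fzr (78.8) and aurB (43.9) without replicate 2. No paired analysis was possible because the design has 1 group. The share of the 39 genes exceeded that of all protein-coding genes in the conservative set with a window of 1000 bp (17.9%, against 15.1%), with the first start (12.8%, against 11.1%) and at a score of 1000 (12.8%, against 10.8%). It was below it with a window of 200 bp (7.69%, against 9.07%).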
